A study of Mus musculus with 13 samples.

Results

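The genes described are 9 enzymes that make, salvage or clear the nucleotides used in DNA replication: Rrm1, Rrm2, Tyms, Tk1, Dut, Dctpp1, Cad, Umps and Dck. They were chosen by symbol, with earlier results of these data known. All 9 were matched to Ensembl identifiers among the 16382 genes in the deposited tables and were among the 13142 genes tested. RNA-seq was performed on wild-type (WT) C2C12 myotubes, the multinucleated cells that form when this mouse myoblast line fuses in low serum. On day 8 of differentiation the cells received either 10 μM palmitoylethanolamide (PEA), a fatty acid amide, or the vehicle DMSO (CON), and RNA was taken 24 h later. The comparison of 6 PEA with 6 CON libraries asks how the transcripts of terminally differentiated myotubes respond to PEA.

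The experiment was repeated 3 times with duplicate wells per treatment, which are technical replicates, so that the 6 libraries of a treatment stand for 3 independent repeats. Libraries from the same repeat are not marked as such in the labels and could not be joined. All p-values therefore treat the libraries as independent, measure a spread that is partly technical and may be too small, and an exact test over 3 against 3 repeats could not go below p = 0.1. The study states that such cultures also keep unfused myoblasts. In a bulk sample, more cells of a type and more RNA per cell cannot be told apart. Libraries held between 12354845 and 50397444 estimated counts, and each member had at least 179 in every library. All 15 myotube markers were detected, at mean normalized counts in CON from 32.8 for Myh2, an adult myosin heavy chain, to 56797 for Acta1, the skeletal muscle actin, and all 10 myoblast markers were detected as well.

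DNA synthesis needs a balanced supply of deoxynucleotides. Ribonucleotide reductase, built of a large subunit (Rrm1) and a small subunit (Rrm2), removes the ribose hydroxyl group from ribonucleotides and so makes all deoxynucleotides. Thymidylate is made from deoxyuridylate by thymidylate synthase (Tyms) or from thymidine by thymidine kinase (Tk1), and Dut supplies deoxyuridylate by cleaving dUTP. Rrm2, Tyms and Tk1 are known as genes of the S phase of the cell cycle, which myoblasts leave before they fuse.

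DNA before the start site is shown for Rrm1, Tyms and Dctpp1, the members that held a searched motif and whose stretch lies outside every annotated exon. Binding sites of E2F and of the CCAAT factor NF-Y are known from promoters of S phase genes, and the E-box is the site of Myc. Each stretch ends where the outermost annotated transcript of the gene begins, is written 5′ to 3′ on the strand of the gene, and carries in capitals the matches to 3 motifs on either strand (the E2F words TTCCCGC and TTGGCGC, the CCAAT box CCAAT and the E-box CACGTG). The sequences are from RefSeq (table of build GRCm38.p6) and were placed by exact match on GRCm39 at chr7:102090770-102090889 on the plus strand for Rrm1, chr5:30278634-30278753 on the minus strand for Tyms and chr7:126859894-126860013 on the minus strand for Dctpp1.
Rrm1: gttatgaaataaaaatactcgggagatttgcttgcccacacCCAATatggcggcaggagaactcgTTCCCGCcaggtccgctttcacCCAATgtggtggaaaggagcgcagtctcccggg
Tyms: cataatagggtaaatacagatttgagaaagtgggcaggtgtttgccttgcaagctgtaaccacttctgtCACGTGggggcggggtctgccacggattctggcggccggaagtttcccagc
Dctpp1: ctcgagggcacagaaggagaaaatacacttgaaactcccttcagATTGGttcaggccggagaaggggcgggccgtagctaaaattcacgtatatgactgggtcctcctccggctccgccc

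All 9 members had an entry in the RefSeq table, and the 250 bases before the start were searched in each. An E2F word was found in 1 of 9 members, Rrm1, at 67 bases before the RefSeq start, against 5.62% of all 32851 windows of this length. A CCAAT box was found in 3 of 9, Rrm1, Rrm2 and Dctpp1, against 33.8% of all windows, and the E-box was found in 1 of 9, Tyms, against 6.02%. Dctpp1 had 2 copies of the CCAAT letters, at 130 and 31 bases before its RefSeq start, the nearer of which lies outside the stretch shown. The CCAAT box of Rrm2, at 50 bases before the RefSeq start, lies in an annotated first exon and is not shown. A match is a run of letters and does not show that a factor binds there. A missing match does not show that a site is missing, since only these exact words in these 250 bases were searched.

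Of the 9 members, 5 were upregulated in PEA (55.6%), namely Rrm1, Rrm2, Tyms, Tk1 and Dck, and none was downregulated. Over all genes tested, 11.0% were called in either direction and 6.31% were called higher in PEA, by edgeR's quasi-likelihood test with an adjusted p-value below 0.05. Since the members and the lists below were chosen with earlier results of these data known, such shares are a description and no independent test. The log2 fold changes of the members ran from 0.06 for Umps to 0.71 for Tk1 with a median of 0.21, where the median of all genes tested was 0.01. Every PEA library lay above every CON library for 2 of 9 members, Rrm2 and Dck, which was the case for 2.53% of all genes tested. The adjusted p-values below are from the same test. Levels are given in normalized counts, that is, estimated counts divided by 1 deposited factor per library, as mean ± SD (n = 6).

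**Figure D1:**
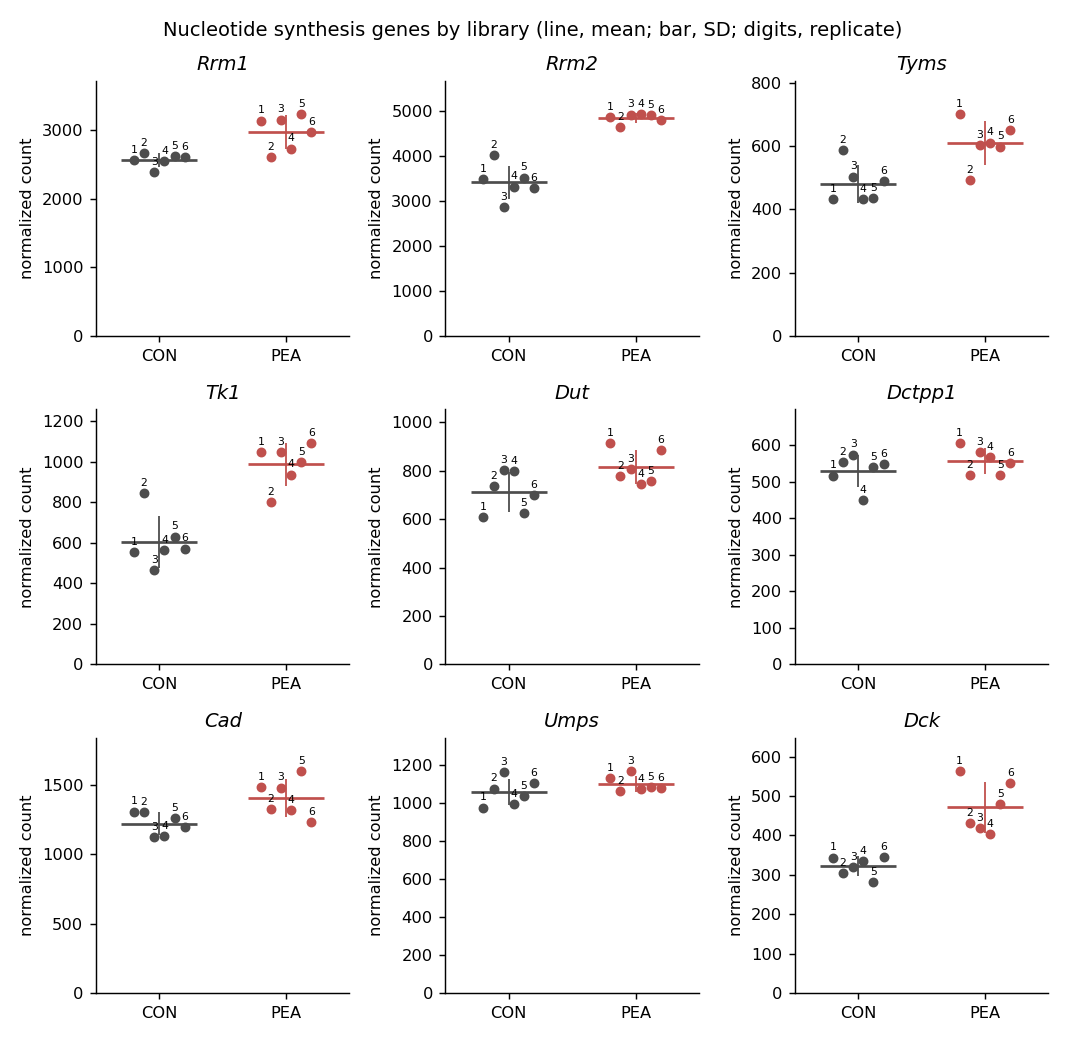
Normalized counts (vertical axes, each from 0) of the 9 members in the 6 CON and 6 PEA libraries, with the mean (line), the SD (bar) and the replicate number. Rrm2 and Dck show no overlap between the groups, whereas for Tk1 CON replicate 2 at 846 stands above PEA replicate 2 at 801.

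Markers of cycling cells moved with these genes. Of 18 such markers, 16 were upregulated (88.9%, against 6.31% of all genes tested), and Pcna and Mcm2 were not called. The median log2 fold change over the list was 0.62, and 14 to 18 markers were called when each library was left out in turn. Their summed normalized counts lay between 14516 and 18254 in CON and between 20309 and 24372 in PEA. The highest CON sum was that of replicate 2 and the lowest PEA sum was also that of replicate 2. Myoblast and myotube markers were counted in the same way. Of 10 myoblast markers 2 were downregulated (Cdh15 and Id3), with a median log2 fold change of -0.05 and sums of 26629 to 32730 in CON and 26563 to 30563 in PEA. Only 1 of the 2 was called when CON 1, 2, 4, 5 or 6 or PEA 2, 5 or 6 was left out. Of 15 myotube markers 4 were downregulated (Tnni2, Actn2, Tnnt3 and Myh8), a share of 26.7% against the same 11.0%. A negative log2 fold change was seen in 14, where 51.3% of all genes tested had a positive one. The median over the list was -0.22, and 9 markers had an unadjusted p below 0.05. Their sums overlapped, with values of 112655 to 175099 in CON and 113868 to 135032 in PEA. Without PEA replicate 6 only 2 myotube markers were called, and other libraries left out gave up to 9. The part of a changed mix of cells in the values of the members was not tested.

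**Figure D2:**
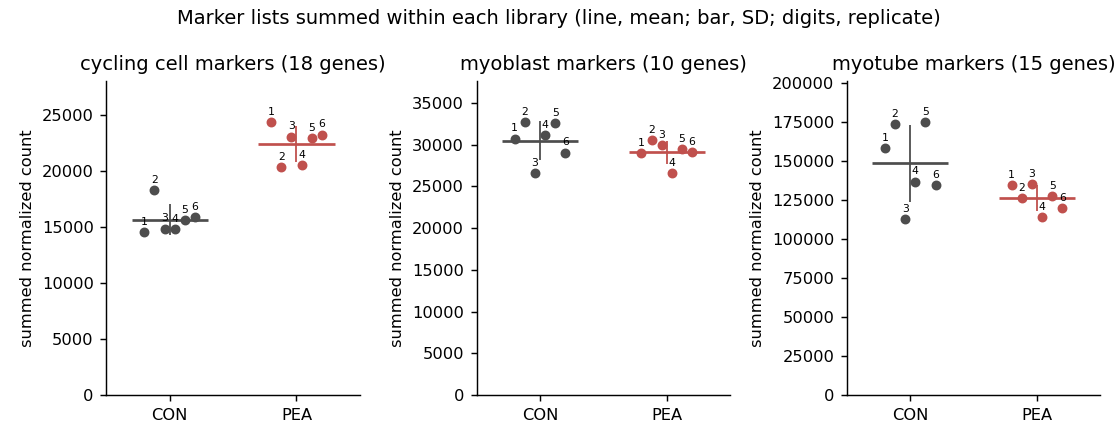
Summed normalized counts (vertical axes, each from 0) of the markers of cycling cells, myoblasts and myotubes in each library, with the mean (line), the SD (bar) and the replicate number. The groups are apart for cycling cell markers, where the highest CON library is at 18254 and the lowest PEA library at 20309, and overlap for the other lists.

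Among the subunits of ribonucleotide reductase, the small subunit Rrm2 (ENSMUSG00000020649, chromosome 12, 24757811 to 24764145, plus strand) changed more. It lay between 2863 and 4020 normalized counts in CON (median 3404) and between 4645 and 4934 in PEA (median 4891). All 6 PEA libraries were above all 6 CON libraries, and the PEA libraries stood close together. The mean was 3416 ± 378 in CON and 4848 ± 111 in PEA, 42.1% higher in the fitted model (log2 fold change 0.51, SE 0.06, adjusted p = 0.000327). By p-value Rrm2 ranked 8 of the 13142 genes tested. A stretch of 1437 bases (43.3%) of the annotated exons of Rrm2 also lies in exons of Gm59512, a long non-coding RNA on the opposite strand that is not analysed here, and since the kit named does not mark strand, reads from the pair cannot be told apart.

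The large subunit Rrm1 (ENSMUSG00000030978, chromosome 7, 102090890 to 102119709, plus strand) ranged from 2387 to 2663 in CON (median 2584) and from 2605 to 3231 in PEA (median 3054). The groups touched, since PEA replicate 2 lay within the CON range while the other 5 PEA libraries were above it. Rrm1 was upregulated by 16% (log2 fold change 0.21, SE 0.05, adjusted p = 0.0188), and without PEA replicate 5 the adjusted p was 0.0525.

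To test whether the subunits moved by different amounts, their ratio was taken within each library. The ratio of Rrm2 to Rrm1 estimated counts was 1.33 ± 0.106 in CON and 1.64 ± 0.124 in PEA (SD, n = 6), with the highest CON library at 1.51 and the lowest PEA library at 1.52. The difference of 0.30 on the log2 scale gave p = 0.00216 in a two-sided exact permutation test, the smallest that 6 against 6 libraries can give, and 0.00433 after Benjamini-Hochberg adjustment over 4 ratios. In all 6 PEA libraries the ratio was above that of all 6 CON libraries.

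Rrm2b encodes another small subunit, which p53 induces and which serves repair and mitochondrial DNA in cells that do not divide. It ranged from 450 to 528 in CON and from 479 to 626 in PEA and was not called (log2 fold change 0.14, SE 0.07, adjusted p = 0.186). Exons of Rrm2b share 755 bases (7.68%) with Gm49085 on the opposite strand, and reads from these bases cannot be told apart by strand either. The ratio of Rrm2 to Rrm2b rose from 6.93 ± 0.721 to 8.98 ± 0.764, a difference of 0.38 on the log2 scale (exact permutation p = 0.00433, adjusted 0.00433). In this ratio 5 of 6 PEA libraries were above all CON libraries, and PEA replicate 4 at 7.89 was just below CON replicate 2 at 7.9.

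On the thymidylate route, Tk1 (ENSMUSG00000025574, chromosome 11, 117702770 to 117717042, minus strand), the cytosolic thymidine kinase, had the largest log2 fold change of the members. It lay between 467 and 846 in CON (median 567) and between 801 and 1093 in PEA (median 1021). CON replicate 2 was the only CON library inside the PEA range, and the next highest CON library was at 631. The CON mean of 605 ± 129 rose to 986 ± 105 in PEA, with a log2 fold change of 0.71 (SE 0.11, adjusted p = 0.00121). Leaving out each library in turn gave log2 fold changes of 0.65 to 0.83, called each time.

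Exons of Tk1 share 630 bases (9.45%) with Syngr2 and 121 bases (1.81%) with Afmid, both on the opposite strand. Syngr2 was at 2587 ± 138 normalized counts in CON and 2552 ± 154 in PEA and was not called (log2 fold change -0.02, adjusted p = 0.847). Afmid was at 136 ± 22.5 in CON and 176 ± 45.8 in PEA and was not called either (0.38, adjusted p = 0.154). As for Rrm2, reads from the shared bases cannot be told apart by strand.

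Tk2, the mitochondrial thymidine kinase, ranged from 264 to 355 in CON and from 310 to 344 in PEA and was not called (log2 fold change 0.07, SE 0.08, adjusted p = 0.614). The ratio of Tk1 to Tk2 within a library was 1.97 ± 0.392 in CON and 3.06 ± 0.322 in PEA. It was higher by 0.66 on the log2 scale (exact permutation p = 0.00433, adjusted 0.00433), with CON replicate 2 at 2.56 above PEA replicate 2 at 2.51 and no other crossing of the groups.

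Tyms (ENSMUSG00000025747, chromosome 5, 30263198 to 30278633, minus strand), which methylates deoxyuridylate, ranged from 432 to 587 in CON (median 463) and from 492 to 700 in PEA (median 606). The overlap came from the libraries numbered 2, the highest in CON and the lowest in PEA, and from CON replicate 3 at 503. The mean rose from 480 ± 61.0 to 609 ± 69.0 with a log2 fold change of 0.35 (SE 0.09, adjusted p = 0.0212), and without PEA replicate 6 the adjusted p was 0.055.

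Dut (ENSMUSG00000027203, chromosome 2, 125089110 to 125100966, plus strand), which keeps uracil out of DNA by cleaving dUTP, did not pass the test. It ranged from 610 to 803 in CON (median 718) and from 744 to 915 in PEA (median 792), and 3 of 6 PEA libraries were above all CON libraries. The log2 fold change was 0.20 (SE 0.08, 95% interval 0.03 to 0.36), with an unadjusted p of 0.0212 and an adjusted p of 0.108.

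Dck (ENSMUSG00000029366, chromosome 5, 88912695 to 88931151, plus strand), which phosphorylates deoxycytidine and the purine deoxynucleosides in the cytosol, lay between 281 and 346 in CON (median 328) and between 404 and 563 in PEA (median 456). The groups did not overlap, and the PEA libraries were spread more widely than the CON libraries. The CON mean of 322 ± 25.2 rose to 472 ± 65.1 in PEA, with a log2 fold change of 0.55 (SE 0.09, adjusted p = 0.0016). Each library left out in turn gave 0.49 to 0.59.

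The mitochondrial deoxyguanosine kinase Dguok was not called, at 375 ± 31.6 in CON and 367 ± 28.3 in PEA (on the log2 scale a difference of -0.03, 95% interval -0.19 to 0.13, adjusted p = 0.843). The ratio of Dck to Dguok was 0.86 ± 0.0591 in CON and 1.29 ± 0.218 in PEA, with CON up to 0.974 and PEA from 1.04 (exact permutation p = 0.00216, adjusted 0.00433). Dck and Tk1 both act on salvaged nucleosides, and for both the ratio to the mitochondrial kinase was higher in PEA.

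**Figure D3:**
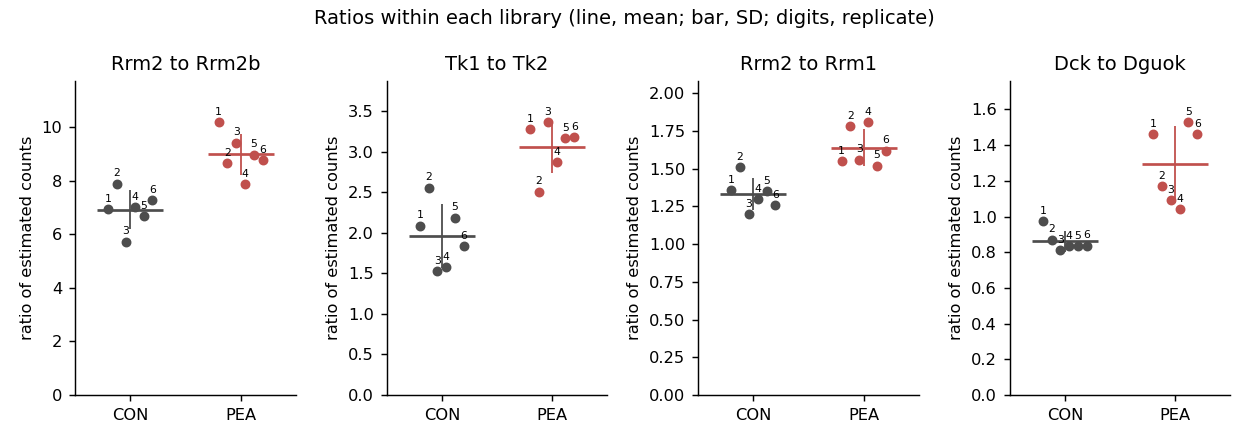
Ratio of estimated counts of the named genes within each library (vertical axes, each from 0), with the mean (line), the SD (bar) and the replicate number. The ratios of Rrm2 to Rrm1 and of Dck to Dguok do not overlap between the groups, with Dck to Dguok at 0.974 or less in CON and 1.04 or more in PEA.

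Pyrimidine synthesis from simple precursors begins with Cad, a single protein that carries the first enzymes of the route, and ends with Umps, which makes UMP from orotate. Cad (ENSMUSG00000013629, chromosome 5, 31212111 to 31236418, plus strand) ranged from 1126 to 1309 in CON (median 1231) and from 1233 to 1601 in PEA (median 1404). In 5 of 6 PEA libraries it was above all CON libraries, and PEA replicate 6 was lowest. The log2 fold change was 0.20 (SE 0.07, 95% interval 0.07 to 0.34), with an adjusted p of 0.0536 that was not called. This result stood at the threshold. It was called by DESeq2 (adjusted p = 0.0396), which called 14.5% of the genes it tested, and by edgeR without CON replicate 2 (0.0325) or without PEA replicate 6 (0.0383).

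Umps (ENSMUSG00000022814, chromosome 16, 33774077 to 33787429, minus strand) was at 1056 ± 70.4 in CON and 1098 ± 40.4 in PEA, with overlapping ranges of 973 to 1161 and 1062 to 1165. Its log2 fold change was 0.06 (95% interval -0.05 to 0.17, adjusted p = 0.498). Exons of Umps share 234 bases (3.81%) with Gm15829 on the opposite strand. Dctpp1 (ENSMUSG00000042462, chromosome 7, 126856127 to 126859893, minus strand), a pyrophosphatase that cleaves dCTP and its modified forms, was likewise not called, at 531 ± 43.9 in CON and 558 ± 35.2 in PEA (a log2 fold change of 0.07, 95% interval -0.07 to 0.21, adjusted p = 0.521). Both intervals end below the log2 fold change fitted for Rrm2, but both overlap the interval of the called member Rrm1 (0.1 to 0.33).

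**Figure D4:**
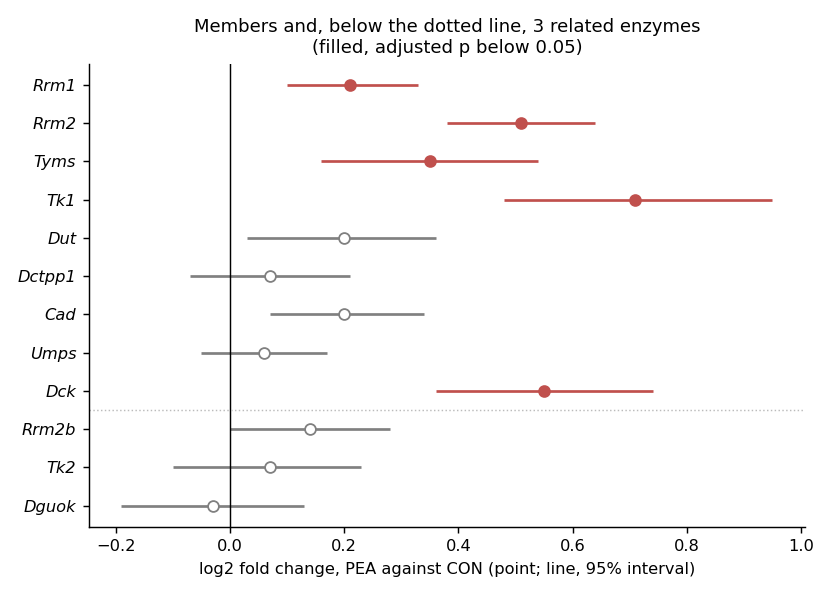
Log2 fold change, PEA against CON (horizontal axis), with 95% interval (line) for the 9 members and for Rrm2b, Tk2 and Dguok. Filled points passed an adjusted p-value of 0.05, with Tk1 at 0.71 the farthest to the right, whereas the intervals of Umps and Dctpp1 include 0.

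Levels of different genes were compared per length, as estimated counts per 1000 bases of the canonical transcript, scaled to the library total (counts per kilobase and per 1000000 counts). On this scale Rrm2 was the most abundant member, at 67.3 ± 7.38 in CON and 97.5 ± 1.78 in PEA. Dctpp1 followed at 39.9 ± 3.28 in CON, then Rrm1 at 27.9 ± 0.998, Tk1 at 21.7 ± 4.61, Dut at 15.4 ± 1.81, Umps at 11.9 ± 0.792, Cad at 8.15 ± 0.55, Tyms at 7.81 ± 0.99 and Dck at 5.27 ± 0.419. In this order the CON ranges of Rrm1 and Tk1, of Tk1 and Dut, and of Cad and Tyms overlapped, and those of the other neighbours did not. In PEA, Tk1 at 36.1 ± 3.73 stood above Rrm1 at 33.0 ± 2.66, with overlapping ranges. The places after Rrm2 and Dctpp1 depended on the length used, since over all annotated exons Tk1 was at 4.68 in CON, below Rrm1 at 11.3, Dut at 12.9, Umps at 8.88 and Cad at 7.18.

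Of the rest of nucleotide metabolism, 67 genes in 7 lists were tested. Among them 8 were upregulated and 1 was downregulated (13.4%, against 11.0% of all genes tested), with a median log2 fold change of 0.02. That share is near the background. The lists name 71 genes, of which Uckl1, Pnp and Dpys were not analysed here and Upb1 was too low to be tested.

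Of 9 genes for pyrimidine ribonucleotides, 1 was upregulated, Ctps1, which makes CTP from UTP (2095 ± 135 to 2424 ± 165, log2 fold change 0.21, adjusted p = 0.0212). The next by p-value, the UMP-CMP kinase Cmpk1, was not called (log2 fold change -0.21, adjusted p = 0.0634). Of 11 other deoxynucleotide enzymes, 1 was upregulated. This was Cmpk2, a mitochondrial nucleotide kinase also known as an interferon response gene, which ranged from 67.9 to 312 in CON and from 217 to 431 in PEA, a log2 fold change of 1.04 (SE 0.28, adjusted p = 0.0258). Dctd, which deaminates dCMP to deoxyuridylate, was not called (0.32, adjusted p = 0.0743).

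Thymidylate synthase takes its methyl group from folate, and of 10 folate genes 2 were upregulated. Mthfd2, a mitochondrial enzyme of one-carbon metabolism, rose from 1426 ± 342 to 2206 ± 333 (adjusted p = 0.0067), a log2 fold change of 0.63 with an SE of 0.13. Shmt2, the mitochondrial serine hydroxymethyltransferase that feeds it, rose from 3017 ± 355 to 3900 ± 405 (adjusted p = 0.00769), a log2 fold change of 0.37 with an SE of 0.08.

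Of 14 genes of purine synthesis, 11 had a negative log2 fold change, and the median of the list was -0.05. Of these 14, 2 were upregulated and 1 was downregulated. Prps2, which makes the activated ribose phosphate, was nonetheless upregulated without overlap between the groups, from 581 to 727 in CON and from 805 to 842 in PEA, a log2 fold change of 0.37 (SE 0.06, adjusted p = 0.000937). Pfas was also upregulated (0.28, adjusted p = 0.0444), and Adsl was downregulated (-0.15, adjusted p = 0.0497), both steps of the purine route and both near the threshold. When single libraries were left out, Pfas was called only without CON 3, CON 4 or PEA 1 and Adsl only without CON 1, CON 2, CON 4 or PEA 1, and the other adjusted p-values reached 0.104 and 0.117. Adsl was also not called with no filter on low counts (0.0652).

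In purine salvage, 1 of 6 genes was upregulated, the adenosine kinase Adk (974 ± 42.0 to 1093 ± 32.6, log2 fold change 0.17, adjusted p = 0.0238), and the next by p-value, Hprt1, was not called (-0.11, adjusted p = 0.279). In nucleotide breakdown, 1 of 12 was upregulated. It was Samhd1, which hydrolyses deoxynucleoside triphosphates and so opposes ribonucleotide reductase (1295 ± 176 to 1627 ± 173, a log2 fold change of 0.33, adjusted p = 0.0217). Dpyd, which degrades pyrimidine bases, was the next by p-value and was low, at 0 to 14.2 normalized counts in CON and 5.79 to 18.2 in PEA (adjusted p = 0.151). Of 5 nucleoside and nucleotide carriers none was called by edgeR, DESeq2 or limma-voom, and 1 had an unadjusted p below 0.05 in edgeR. The smallest p-values were those of Slc29a3 (log2 fold change 0.17, unadjusted p = 0.0494, adjusted p = 0.181) and Slc25a33 (0.11, adjusted p = 0.579).

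Several of these calls lay near the threshold. Leaving out a library ended the call of Ctps1 for 3 libraries (CON 5, PEA 5 and PEA 6), of Adk for 2 (CON 6 and PEA 6), of Samhd1 for 4 (CON 6, PEA 2, PEA 4 and PEA 5) and of Cmpk2 for 6 (CON 5, CON 6, PEA 2, PEA 4, PEA 5 and PEA 6), with adjusted p from 0.0505 to 0.0657. In these fits the log2 fold changes were 0.19 to 0.20 for Ctps1, 0.16 to 0.17 for Adk, 0.31 for Samhd1 and 0.90 to 1.05 for Cmpk2. The calls of Shmt2, Mthfd2 and Prps2 were made each time.

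**Figure D5:**
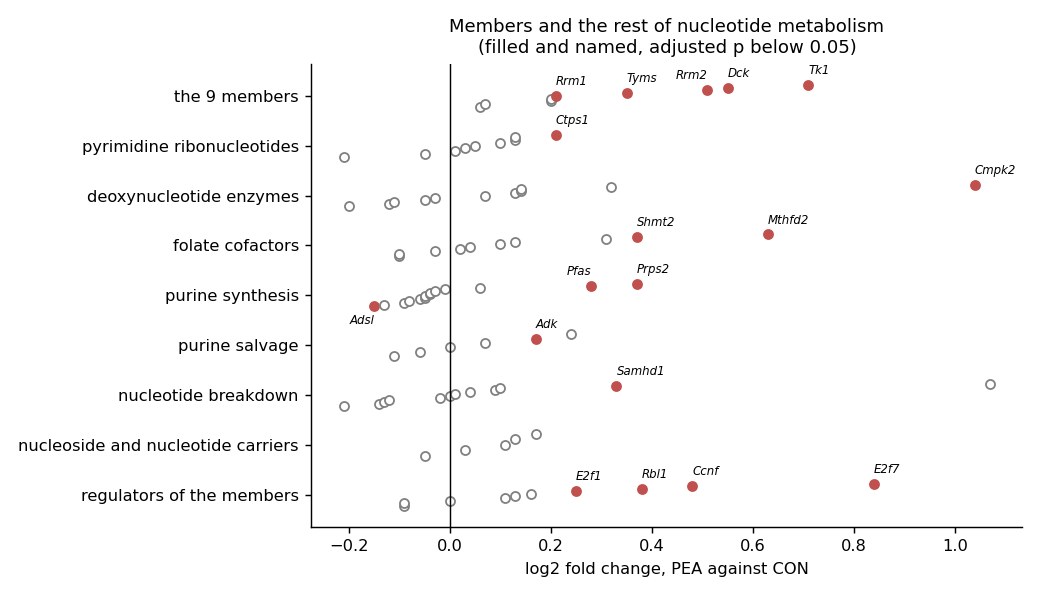
Log2 fold change, PEA against CON (horizontal axis), of the 9 members, of the other genes of nucleotide metabolism by list and of the regulators of the members, 1 point per gene. Filled and named points passed an adjusted p-value of 0.05, which 5 of 9 members and 9 of 67 other pathway genes did.

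Several of the members are known E2F targets, which the retinoblastoma family holds in check outside the S phase, and the Rrm2 protein is marked for degradation by cyclin F (Ccnf) and by the Fzr1 form of the anaphase-promoting complex. Of 10 such regulators, 4 were upregulated and none was downregulated, where 6.31% of all genes tested were called higher, and 2 or 3 were called in each fit that left out a library. E2f7, a repressing E2F that is itself an E2F target, rose from 150 ± 45.6 to 267 ± 30.0, with a log2 fold change of 0.84 (SE 0.16, adjusted p = 0.00422). Rbl1, the retinoblastoma relative p107, was upregulated without overlap between the groups, at 281 to 322 in CON and 338 to 438 in PEA (0.38, adjusted p = 0.00492).

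Ccnf (0.48, adjusted p = 0.0404) and the activator E2f1 (0.25, adjusted p = 0.0425) were called near the threshold. When single libraries were left out, Ccnf was called only without CON 2 or PEA 4 and E2f1 only without CON 3 or PEA 5, and the other adjusted p-values reached 0.0856 and 0.0894. The others, E2f2, E2f3, E2f8, Myc, Rb1 and Fzr1, were not called, and their log2 fold changes ran from -0.09 to 0.16.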

How the data were processed

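The authors discarded low-quality reads, aligned the others with STAR 4.4.1d to mm39 (GRCm39), quantified Ensembl genes in Partek Flow and filtered them by a rule not given in the sources used here. They deposited expected counts (estimated counts per gene, of which 30.8% of those above 0 were more than 0.01 from a whole number) and a normalized signal, which was checked to be the same counts divided by 1 DESeq2 factor per library. The labels hold 13 entries for 12 libraries, since PEA replicate 2 has 2 runs that share 1 set of values, which entered once. Genes with identifiers above the last in the tables were not analysed here. The annotation matched 16343 of 16382 identifiers.

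Counts were rounded and tested with edgeR 4.0.16 in R 4.3.3 (quasi-likelihood test, TMM factors of 0.988 to 1.02, default filter on low counts, Benjamini-Hochberg adjustment over 13142 genes, threshold 0.05). Tested on simulated data of these 13142 genes, it recovered 73 of 100 genes changed by 0.5 and 92 of 100 changed by 1 on the log2 scale. Of all its calls 7.82% were false, a share above the threshold of 0.05. The simulated libraries were independent, unlike duplicate wells, so the error of the test in the real data remains unknown. The SE was derived from the test statistic. DESeq2 1.42.0 and limma 3.58.1 gave alternatives. Ratios were compared by exact permutation over libraries, with Benjamini-Hochberg adjustment over 4 ratios. No library appeared to be deposited more than once, since none of 30 pairs within a group agreed within sampling noise. The biological coefficient of variation was 0.106.

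The members and the lists were chosen with earlier results of these data known. The genes named are the members, the related enzymes Rrm2b, Tk2 and Dguok, each called gene and the 2 smallest p-values of each pathway list, each called regulator, and the 5 genes closest to the members across libraries. Single marker genes, the antisense neighbours Gm59512, Syngr2, Afmid, Gm49085 and Gm15829, and the regulators that were not called were named after values were seen.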

Additional observations from a re-analysis of the deposited data

How the results depend on the processing

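No member changed sign in any of 180 fits under the alternatives (DESeq2, voom in limma, limma on the deposited normalized counts with a pseudocount of 1, size factors by median of ratios, counts left unrounded, no filter or a filter of at least 10 counts per library, a block for the replicate number, and each library left out). An adjusted p-value below 0.01 left 3 members, 3 pathway genes and 405 of all genes called. Leaving out each library in turn gave 4 to 6 members, 4 to 10 pathway genes and 778 to 2203 of all genes. The pathway count was lowest, at 4, without CON replicate 6, PEA replicate 5 or PEA replicate 6, and was 5 without PEA replicate 2 or 4. The count of all genes was highest without CON replicate 2 and lowest without PEA replicate 6. The cause was not tested.

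Whether the replicate numbers pair the libraries is not stated in the labels. The correlations given here describe this and cannot exclude a pairing, since the deviations also hold variation from other sources. The correlation of same-numbered deviations from the group means lay between -0.08 and 0.06, and 0 of 6 CON libraries correlated best with the PEA library of its own number. With the replicate number as a block, 6 members were called, Cad being added (adjusted p = 0.0422). Called as well were 9 pathway genes and 1570 of all genes, against 1452 of all genes in the main fit. Pfas (adjusted p = 0.081) and Adsl (0.0812) were no longer among these 9 pathway genes. The block lowered the adjusted p of Cmpk2 (to 0.00184), Mthfd2 (0.000906), Shmt2 (0.00139) and Samhd1 (0.00306). It raised that of Ctps1 (to 0.0354), Prps2 (0.00277) and Adk (0.0474). In the exact sign-flip test of same-numbered differences, which cannot go below p = 0.0312, the ratio of Tk1 to Tk2 kept its difference of 0.66 but had an adjusted p of 0.0625, and those of the other ratios were 0.0417. The ratios were called under the other alternatives run, namely 1 count added, the deposited normalized counts and each library left out, with adjusted p from 0.00289 to 0.00649.

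Each member had at least 179 estimated counts in every library.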

Other observations

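Within the groups the members did not all vary together. After subtraction of the group means, Pearson's r between 2 members over 12 libraries ran from -0.44 (Dut and Cad) to 0.86 (Rrm2 and Tk1), with a median of 0.17 over 36 pairs and 8 pairs above 0.5. Rrm1 and Cad reached 0.69, Tyms and Tk1 reached 0.64, and Rrm2 and Dck were at -0.19. The libraries share their scaling factors across genes, and these values are a description.

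CON replicate 2 had the highest mean deviation of the members from the CON mean (0.14 in log2 CPM) and PEA replicate 2 the lowest from the PEA mean (-0.13). Among the other genes tested, those most like this mean over 12 libraries were Lig1, the DNA ligase that joins Okazaki fragments (r = 0.95), Arhgdib (0.94), Bex3 (0.91), Tppp3 (0.91) and Cenpq, a centromere protein (0.87). Of these, Lig1 (log2 fold change 0.57, adjusted p = 0.000937) and Cenpq (0.52, adjusted p = 0.019) were upregulated in PEA by edgeR's test, whereas Arhgdib (-0.06, adjusted p = 0.504), Bex3 (-0.05, adjusted p = 0.602) and Tppp3 (0.04, adjusted p = 0.782) were not called.

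The coefficient of variation of normalized counts differed among members. For Rrm2 it was 11.1% in CON and 2.29% in PEA, for Rrm1 3.72% and 8.5%, for Tk1 21.4% and 10.7%, and for Dck 7.82% and 13.8%. Whether these spreads differ between the groups was not tested.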
